A study of Homo sapiens with 5 samples.

Results

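The RNA sensors and double-stranded RNA effectors examined here were 8 genes: RIGI, IFIH1, DHX58, MAVS, TLR3, ZNFX1, EIF2AK2 and ADAR. Each gene was followed through the H3K27ac peaks whose center lay within 10 kb of one of its GENCODE start sites on GRCh38. By this rule 7 of the 8 genes had at least 1 peak, and 10 of the 20087 peaks of the deposited table belonged to them. The rule assigns peaks by distance and uses no signal value.

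ChIP-seq of H3K27ac, a histone acetylation found at promoters and enhancers in use, was carried out in HCT116, a human colorectal carcinoma cell line. Every library came from the derived line labelled HCT116 CMV-osTIR1 RAD21-mAC, in which the CMV promoter drives the auxin receptor osTIR1 and the cohesin subunit RAD21 carries the mAC degron tag. DMSO at 0.1% was present for 6 h in every group, and the labels name no auxin. The stimulated group (2 libraries) then received IFN-β at 1000 unit/ml for 1 h, whereas the control group (2 libraries) was harvested at 0 min without it, so IFN-β and the added hour of culture cannot be told apart. Cells were fixed in 1% formaldehyde, each immunoprecipitation used 500000 cells, and 1 input library served as background for peak calling. The label of the input names a mock sample at a later time than the 0 min of the control. The labels do not say whether the 2 libraries of a group came from separate cultures.

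Cytoplasmic RNA sensing begins with the RIG-I-like receptors, helicases that recognize viral double-stranded RNA: RIG-I (RIGI), MDA5 (IFIH1) and LGP2 (DHX58), the last of which lacks signaling domains and regulates the others. RIG-I and MDA5 signal through MAVS, an adaptor on the mitochondrial membrane, whereas TLR3 senses double-stranded RNA in endosomes. PKR (EIF2AK2) phosphorylates the translation factor eIF2α once it binds double-stranded RNA, and ADAR converts adenosine to inosine in such RNA and so keeps self RNA from triggering the sensors. Type I interferon induces most of these genes through a promoter sequence, the interferon-sensitive response element (ISRE), whereas MAVS is expressed constitutively.

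The ISRE core was searched as GAAANNGAAA on both strands within 500 bp of each peak center. It stood in 3 of the 10 member peaks, at IFIH1, EIF2AK2 and ADAR, against 11.6% of all peaks and 8.66% of the 11334 peaks within 1 kb of a protein-coding start. Motif shares, here and below, were not matched for GC content. The stretches around these cores are shown because they lie beside the start sites of 3 of the genes that led the table below. They are read 5′ to 3′ on the strand of the gene (minus for all 3), with the core or its reverse complement in capitals, from the GRCh38 reference.
IFIH1, chr2:162318686-162318715: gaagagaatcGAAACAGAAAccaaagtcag
IFIH1, chr2:162318821-162318850: aattcgcTTTCCTTTTCTGTTTCccgcggt
EIF2AK2, chr2:37156967-37156996: agtccaagggGAAAACGAAActgagaacca
ADAR, chr1:154608179-154608208: ccgaggaaacGAAAGCGAAAttgaaccgga
The second IFIH1 stretch held 2 overlapping cores on the other strand, so the peak had 3 in all. The EIF2AK2 core was followed by CT, the longer form GAAANNGAAACT, which 0.816% of all peaks and 0.706% of peaks within 1 kb of a protein-coding start carried. A match of letters is a description of the sequence and not a measured binding site.

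RefSeq promoter sequences, from 250 bases before the start to 50 after it on GRCh38.p14, were matched for 6 of the 8 genes. The core stood in 3.57% of the 35116 promoters of that set. In the EIF2AK2 promoter it ran from 6 bases before the start base into the first transcribed bases. IFIH1 had 3 cores in its promoter. TLR3, which had no acetylated peak, held a core across its start site, shown here on the plus strand with the reverse complement of the core in capitals.
TLR3, chr4:186069142-186069171: caagctttacTTTCACTTTCgagagtgccg
RIGI had no exact core in its promoter but 4 matches with 1 mismatch in the 8 fixed bases, a form found in 33.0% of the RefSeq promoters. The 250 bases before the RIGI start are shown on its minus strand because this gene had the highest difference of the members, with the 1-mismatch matches in capitals; 3 of them overlap in the longer run.
RIGI, chr9:32526197-32526446: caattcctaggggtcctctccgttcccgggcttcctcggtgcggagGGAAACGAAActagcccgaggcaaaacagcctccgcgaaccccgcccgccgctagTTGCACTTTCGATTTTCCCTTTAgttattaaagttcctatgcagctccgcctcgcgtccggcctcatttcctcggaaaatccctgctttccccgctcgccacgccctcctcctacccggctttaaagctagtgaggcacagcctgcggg
The MAVS promoter had no match even with 1 mismatch. The 3 ADAR promoters in the RefSeq set had no exact core; their starts lie at 154627997, 154627971 and 154608797, away from the core printed above.

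The table gives each peak as log2 of the authors' group mean of normalized reads, with no value per library, so the spread between libraries could not be computed. The authors' own test of each peak, also in the table, was not used, and the differences here carry no test over libraries. The lowest value of a group was read as 1 read in each of its 2 libraries, 0.664 normalized reads after IFN-β and 0.889 in the control. From the reads this implies, a 95% interval (exact Clopper-Pearson, conditional on the summed reads) was placed on each difference; it covers counting error only. The study reports that input coverage was controlled for when these peaks were found. If input reads were subtracted from the values, the lowest value need not be 1 sequenced read, and the intervals would be too narrow. Differences are IFN-β minus control on the log2 scale. The median over all 20087 peaks was −0.69 (0.62-fold), and the summed normalized reads were 540427 after IFN-β against 876825 in the control, so each difference is also given relative to that median. The table carried promoter peaks for 6 of 7 epithelial marker genes (4.48 to 7.10 in the control; VIL1 had none), for 0 of 5 blood markers and for 1 of 4 fibroblast markers (COL1A1, 5.24 in the control).

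Among the member genes, signal at the start sites of RIGI and EIF2AK2 was higher after IFN-β by more than counting error, and signal at IFIH1 and at one of the ADAR start regions was slightly higher by amounts within it. MAVS, ZNFX1, the other ADAR start region and the peak assigned to DHX58 had lower deposited values after IFN-β. Of the 10 member peaks, 4 had a difference above 0, against 5.93% of all peaks and 2.81% of the peaks within 1 kb of a protein-coding start. A difference at least 1 above the table median was found for 2, against 2.51% and 1.22%. The counting interval lay wholly above the median for 5 (RIGI, EIF2AK2, IFIH1, ADAR and ZNFX1), against 8.04% and 4.42%. It lay wholly above 0 for 2 (RIGI and EIF2AK2), against 0.602% and 0.335%.

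**Figure D1:**
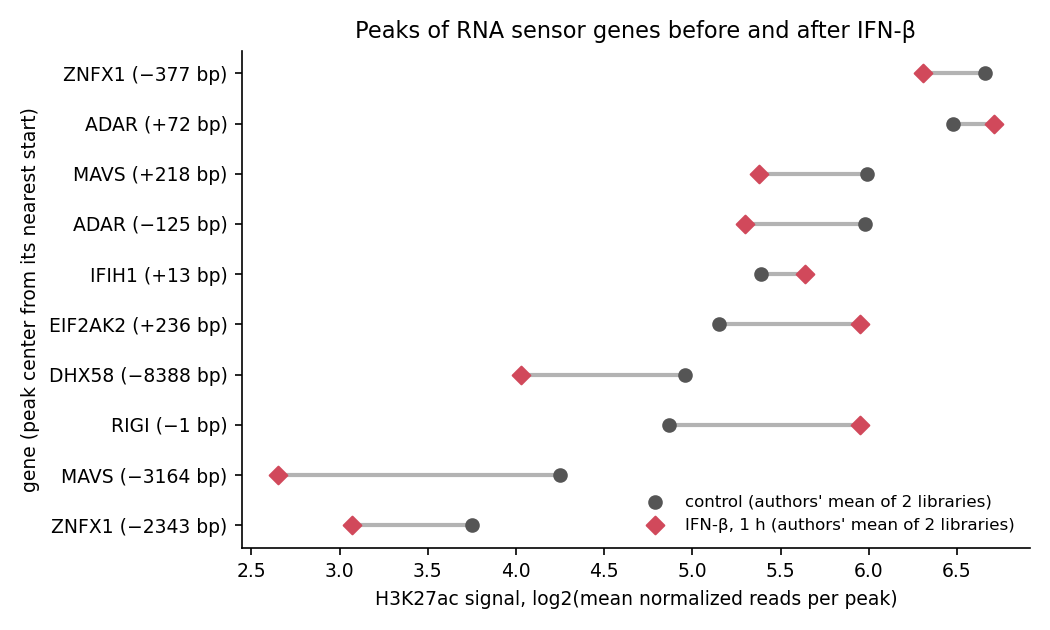
H3K27ac level of each member peak, as log2 of the authors' mean normalized reads, in the control and after IFN-β; labels give the gene and the distance of the peak center from its nearest start. RIGI and EIF2AK2 have the widest gaps with IFN-β above the control, and the MAVS peak at −3164 bp has the widest gap the other way.

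RIGI encodes the sensor of short double-stranded RNA with 5′ triphosphate ends. Its peak (chr9:32525697-32526697, gene ENSG00000107201.11, minus strand) was centered 1 bp upstream of a start, in an untranslated stretch of an exon and also within an intron of the gene ENSG00000288684. The level was 4.87 in the control (29.2 normalized reads) and 5.95 after IFN-β (61.8 normalized reads). The difference was 1.08 (2.11-fold), with a counting interval of 0.66 to 1.5 from about 186 reads after IFN-β and 66 in the control. Relative to the median of all peaks it was 1.77 higher, and 61 of the 20087 peaks had a higher difference. RIGI thus had the highest difference of the members from one of their lower control levels, at percentile 45.5 of all peaks.

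EIF2AK2 encodes PKR. Its peak (chr2:37156199-37157199, ENSG00000055332.19, minus strand) was centered 236 bp downstream of the nearest annotated start, in an intron. The level was 5.15 in the control (35.5 normalized reads) and 5.95 after IFN-β (61.8 normalized reads). The difference was 0.80 (1.74-fold), with a counting interval of 0.41 to 1.19 from about 186 and 80 reads. EIF2AK2 stood 1.49 above the median, and 105 peaks were higher. After IFN-β it carried the same deposited level as RIGI.

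IFIH1 encodes MDA5, the sensor of long double-stranded RNA. Its peak (chr2:162318171-162319171, ENSG00000115267.10, minus strand) was centered 13 bp downstream of a start, in the 5′ untranslated region. The level was 5.39 in the control (41.9 normalized reads) and 5.64 after IFN-β (49.9 normalized reads). The difference was 0.25 (1.19-fold), and its counting interval of −0.13 to 0.64 included 0. Relative to the median it was 0.94 higher (interval 0.56 to 1.33), above 97.1% of all peaks. A start of GCA, a gene transcribed the other way, lies 155 bases from that of IFIH1 in the same peak, so the signal cannot be told apart between them. The canonical starts of IFIH1 and GCA are 25448 bp apart. A separate peak 170 bp from a GCA start (chr2:162344008-162345008) went from 4.03 in the control to 3.12 after IFN-β, a difference of −0.91.

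ADAR had peaks at both of its main start regions, 19692 bp apart, and they differed in their change. The downstream peak (chr1:154607542-154608542, ENSG00000160710.18, minus strand) covered the starts of 4 protein-coding transcripts, among them the canonical one, whose protein of 1226 residues is the interferon-inducible p150 form. Its level was 6.48 in the control (89.3 normalized reads) and 6.71 after IFN-β (105 normalized reads). The difference of 0.23 (1.17-fold) had an interval of −0.03 to 0.49 and lay 0.92 above the median.

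The upstream ADAR peak (chr1:154627234-154628234) covered 9 protein-coding transcripts, of which 8 encode 931 residues, the constitutive p110 form, and 1 encodes 912. Its level was 5.98 in the control (63.1 normalized reads) and 5.30 after IFN-β (39.4 normalized reads). The difference of −0.68 (interval −1.04 to −0.31) was 0.01 above the median of all peaks. The 2 ADAR differences were 0.91 apart and their counting intervals did not overlap. The start regions are not fully separate by protein, because 1 of the 4 transcripts that start in the downstream peak also encodes 931 residues.

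ZNFX1 encodes a helicase with a zinc finger domain that binds double-stranded RNA and acts with MAVS. Its nearer peak (chr20:49278303-49279303, ENSG00000124201.15, minus strand) lay 377 bp upstream of a start. The level was 6.66 in the control, the highest of the member peaks (101 normalized reads), and 6.31 after IFN-β (79.3 normalized reads). The difference of −0.35 had an interval of −0.62 to −0.08, wholly below 0 as deposited, but 0.34 above the median (interval 0.07 to 0.61). The direction for ZNFX1 therefore depended on the scaling. The noncoding gene ZFAS1 shares this peak. A second ZNFX1 peak, 2343 bp upstream in ZFAS1, was at 3.75 in the control and 3.07 after IFN-β, a difference of −0.68.

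MAVS, the adaptor of the group, followed the table median. Its nearer peak (chr20:3846552-3847552, ENSG00000088888.18, plus strand) was centered 218 bp downstream of the nearest annotated start, in an intron. The level was 5.99 in the control (63.6 normalized reads) and 5.38 after IFN-β (41.6 normalized reads). The difference was −0.61 (interval −0.97 to −0.26), which was 0.08 above the median (interval −0.28 to 0.43), so its sign depended on the scaling. A second peak, 3164 bp upstream and outside annotated genes, went from 4.25 to 2.65, the lowest difference of the member peaks at −1.60 (interval −2.46 to −0.79). Relative to the median that was −0.91 (interval −1.77 to −0.10), from about 19 reads after IFN-β and 43 in the control.

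DHX58 and TLR3 had no peak at their own start sites. The one peak assigned to DHX58 (chr17:42120602-42121602, minus-strand gene ENSG00000108771.13) lay 8388 bp upstream and was centered 44 bp from the start of KAT2A, which encodes an acetyltransferase, in a coding exon of that gene. It went from 4.96 in the control to 4.03 after IFN-β, a difference of −0.93 (interval −1.49 to −0.39). Relative to the median that was −0.24 (interval −0.80 to 0.30). For TLR3 (ENSG00000164342.14, chromosome 4) the nearest peak was 23259 bp away and 174 bp from the start of FAM149A. Its difference was −0.67, 0.02 above the median. A gene without a peak here was not called acetylated in this table, and its signal was not measured.

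**Figure D2:**
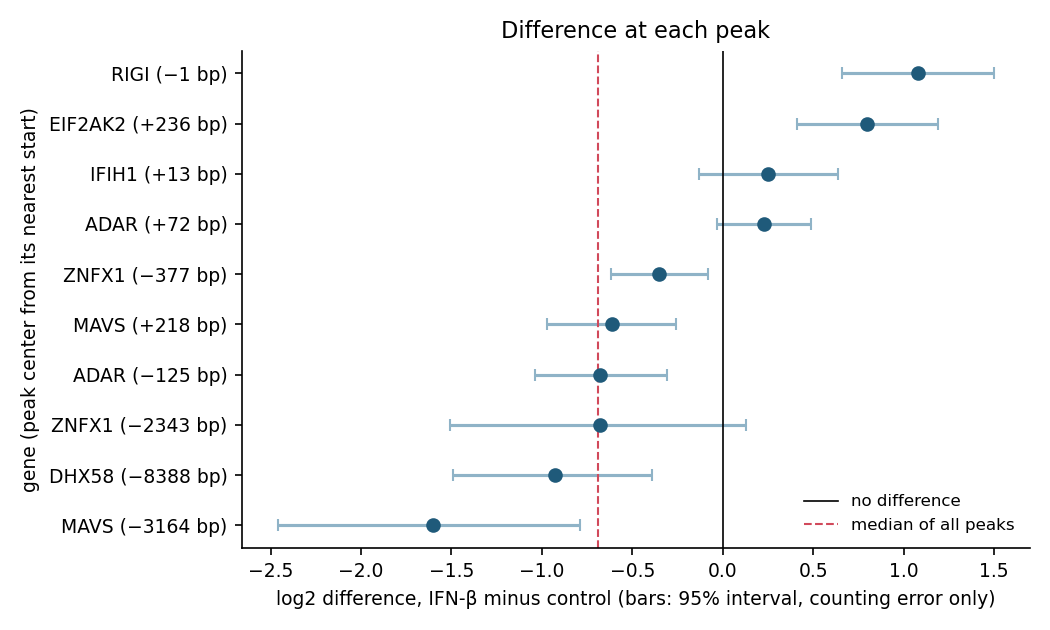
Difference of each member peak (IFN-β minus control, log2) with its counting interval; the solid line marks 0 and the dashed line the median of all peaks, −0.69. The intervals of RIGI and EIF2AK2 lie right of 0, those of IFIH1, the downstream ADAR peak and ZNFX1 lie right of the median, and no interval includes error between libraries.

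By level in the control, the order of the member peaks was ZNFX1 (6.66), downstream ADAR (6.48), MAVS (5.99), upstream ADAR (5.98), IFIH1 (5.39), EIF2AK2 (5.15), the DHX58-assigned peak (4.96) and RIGI (4.87), then the upstream MAVS (4.25) and ZNFX1 (3.75) peaks. Only 3 pairs of neighbors differed beyond counting error, namely downstream ADAR above MAVS, upstream ADAR above IFIH1, and RIGI above the upstream MAVS peak. The 10 member peaks were of the same width, so these levels are per equal length. After IFN-β the order was downstream ADAR (6.71), ZNFX1 (6.31), EIF2AK2 and RIGI (both 5.95), IFIH1 (5.64), MAVS (5.38), upstream ADAR (5.30), the DHX58-assigned peak (4.03), and the upstream ZNFX1 (3.07) and MAVS (2.65) peaks. Neighbors then differed beyond counting error at downstream ADAR above ZNFX1, ZNFX1 above EIF2AK2, upstream ADAR above the DHX58-assigned peak, and that peak above the upstream ZNFX1 peak. By deposited level RIGI moved from rank 8 and EIF2AK2 from rank 6 to a tie at ranks 3 and 4, past MAVS. Most neighboring levels on the way did not differ beyond counting error. The genes with the highest control levels stayed at the top.

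**Figure D3:**
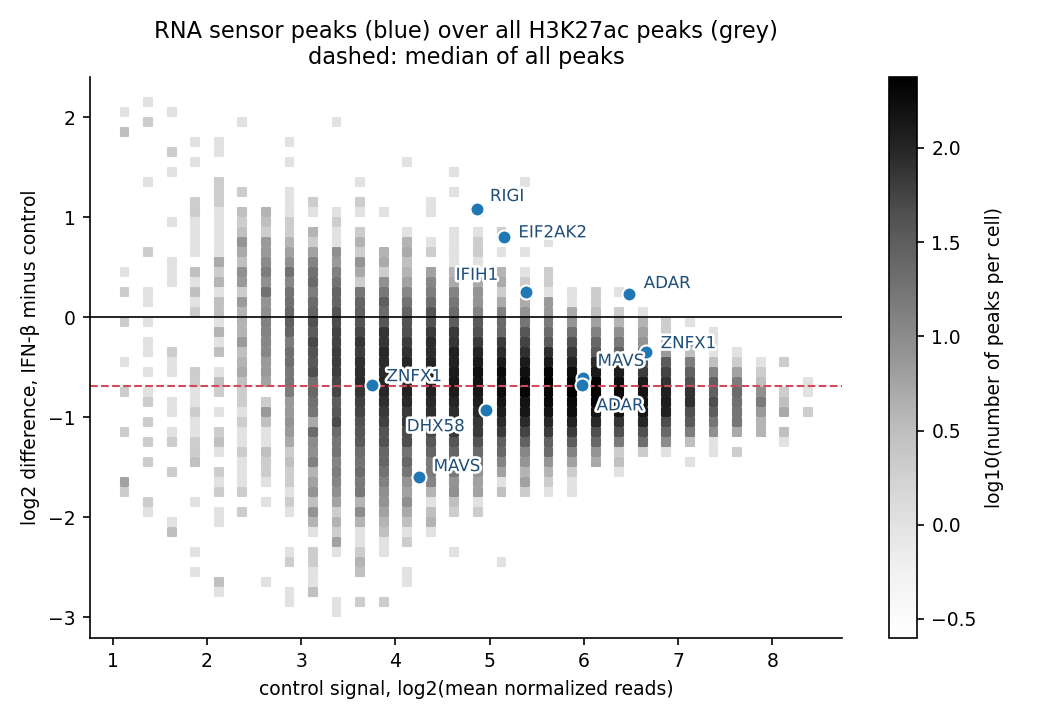
Difference against control level for the member peaks (blue) over all peaks (grey cells, darker with more peaks, log10 scale); the plotted range holds 19532 of the 20087 peaks. RIGI and EIF2AK2 stand above most peaks of like control level, and MAVS and the upstream ADAR peak lie near the dashed median at −0.69.

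Read at the peak nearest to a start, the 6 inducible genes with a peak averaged 0.18 ± 0.74 (SD over genes, not over replicates), from −0.93 at the DHX58-assigned peak to 1.08 at RIGI. MAVS stood at −0.61, a gap of 0.79. Without DHX58, whose peak lay at KAT2A, the gap over 5 genes was 1.01. The 5 inducible genes other than DHX58 did not move as one: RIGI and EIF2AK2 were far above the median, while IFIH1, ADAR and ZNFX1 were nearer to it. The DHX58-assigned peak stood at −0.24 relative to the median, with a counting interval (−0.80 to 0.30) that included it. Because that peak lay at the start of KAT2A, it gives no reading of the DHX58 start. MAVS was the only constitutive adaptor among the members, so its side of the comparison rests on 1 gene.

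The 4 member peaks with a difference above 0 lay within 1 kb of a start, where there were 7 peaks with a median difference of 0.23. All 7 were above the table median, MAVS (0.08) and upstream ADAR (0.01) by less than counting error. Over all peaks 49.1% were above it, and peaks within 1 kb of a protein-coding start had a lower median, −0.75. The 3 peaks between 1 and 10 kb had a median of −0.93 and 0 above 0. A further 28 peaks lay between 10 and 100 kb from a member start, with a median of −0.73, 0 above 0 and 12 above the table median. The 12 are close to the 49.1% over all peaks. With 5.93% of all peaks above 0, counts of 0 among so few flanking peaks are close to the share over the whole table. The highest of the 28 were at −0.06 near NDUFB6, 47008 bp from RIGI, and at −0.15 near FAM149A, 63165 bp from TLR3. The lowest was at −2.85 near CDC25B, 57453 bp from MAVS, from 3.25 in the control to 0.40. Over all peaks the median difference was −0.47 in the lowest of 10 GC content bins and −0.82 in the highest. Centering within these bins left RIGI at 1.67, EIF2AK2 at 1.54 and IFIH1 at 0.93.

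**Figure D4:**
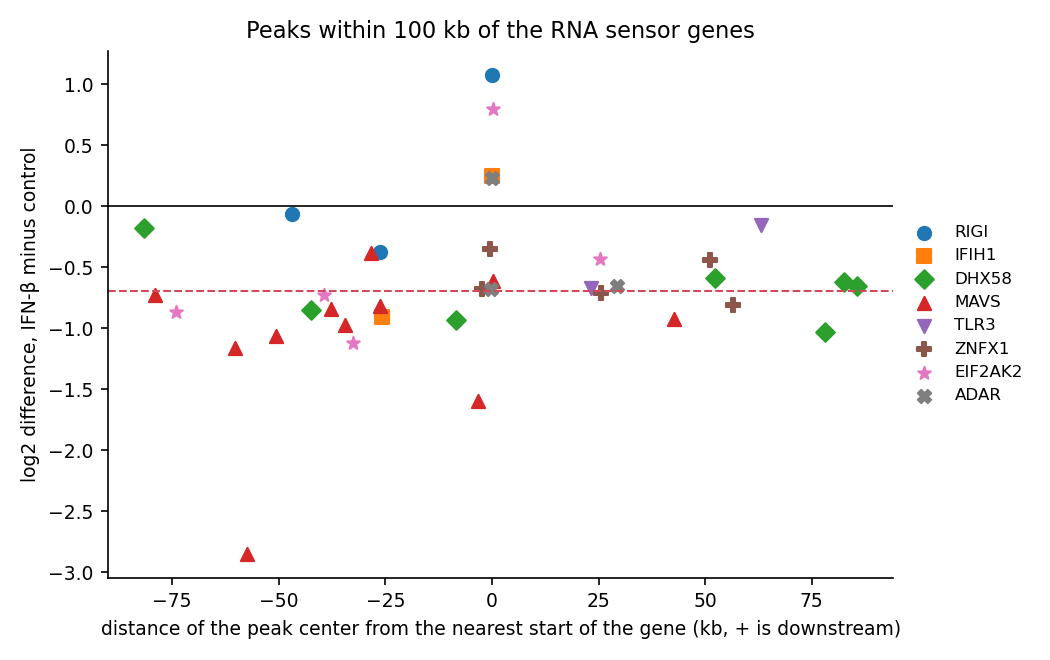
Difference of every peak within 100 kb of a member start against the distance of its center from the nearest start of that gene (kb). Values above 0 are found only at distances under 1 kb, at RIGI, EIF2AK2, IFIH1 and ADAR.

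Other genes of RNA sensing were read in the same way, each at its nearest peak. The list of adaptors and kinases downstream of the sensors had a peak for 19 of 19 genes, with 0 above 0 and a median of −0.69, equal to that of all peaks. Above 0 were 5.93% of all peaks and 2.81% of the peaks within 1 kb of a protein-coding start. A count of 0 in a list of this size is close to these shares. Its highest values were −0.40 at IKBKE, an inducible kinase of IRF3, and −0.40 at AZI2, an adaptor of TBK1. The lowest were −1.42 at TBKBP1 and −1.26 at TRAF2, a ubiquitin ligase of receptor signaling. MAVS, at −0.61, was therefore inside the range of the other adaptors and kinases.

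Cofactors and brakes of the helicase sensors had a peak for 17 of 17 genes, with a median of −0.71 and 3 above 0. Over all peaks 5.93% were above 0, and 2.81% of those within 1 kb of a protein-coding start. TRIM14, an adaptor that binds MAVS, went from 4.75 to 5.47, a difference of 0.72 (interval 0.26 to 1.17). ZC3HAV1, the zinc finger antiviral protein, went from 6.10 to 6.34, a difference of 0.24 (interval −0.05 to 0.54). DDX60, a helicase with antiviral activity, went from 5.56 to 5.73, a difference of 0.17 (interval −0.19 to 0.54). The ISRE core stood in the peaks of 5 of the 17 genes, these 3 with DDX60L (−0.04) and PPP1CA (−0.58), against 8.66% of peaks within 1 kb of a protein-coding start. In the other lists it stood at RIPK1 (−0.55), DHX15 (−0.71), UNC93B1 (−0.58) and MYD88 (−0.86). None of these was above 0, a count close to the share over all peaks. The counting interval of TRIM14 lay above 0, those of ZC3HAV1 and DDX60 did not. All of these intervals lay wholly above the table median. So did those of DDX60L (−0.25 to 0.17) and TRIM25 (difference −0.06, interval −0.29 to 0.17), and no other of this list. The same holds for 8.04% of all peaks and 4.42% of those within 1 kb of a protein-coding start.

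Other double-stranded RNA binding proteins had a peak for 15 of 17 genes, with 0 above 0 and a median of −0.78. Counts of 0 in this list and the next are close to the shares above 0, 5.93% of all peaks and 2.81% of those within 1 kb of a protein-coding start. The highest were PPP1R15A (−0.26), which directs dephosphorylation of the PKR substrate eIF2α, and ADARB1 (−0.61), the other catalytic editing enzyme. The lowest were EIF2S1 (−1.07), which encodes eIF2α itself, and DICER1 (−0.98). Only PPP1R15A, in this list and the next, had a counting interval wholly above the table median (−0.58 to 0.07). That is found for 8.04% of all peaks. Endosomal sensing had a peak for 3 of 5 genes, namely SIDT2 (−0.52), UNC93B1 (−0.58) and MYD88 (−0.86), and 0 above 0. TLR7 and TLR8 had none, as TLR3 had none.

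**Figure D5:**
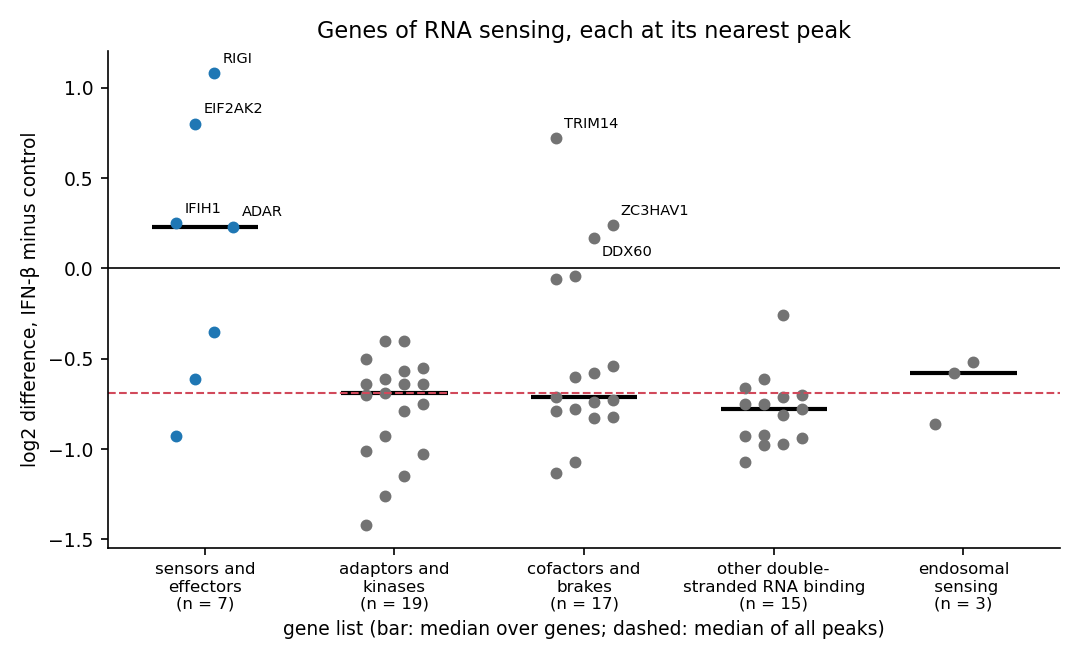
Difference of each gene at its nearest peak (IFN-β minus control, log2) for the 7 member genes with a peak and 4 lists of other RNA sensing genes; bars are medians over genes and the dashed line is the median of all peaks, −0.69. Points above 0 are RIGI, EIF2AK2, IFIH1 and ADAR among the members and TRIM14, ZC3HAV1 and DDX60 among the cofactors.

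The genes whose peak was most like that of RIGI in both group levels were sought among peaks within 1 kb of a protein-coding start, by Euclidean distance over the 2 conditions. The nearest was LAP3, an aminopeptidase, which went from 4.86 to 5.68 (distance 0.27). EIF2AK2 was next at a distance of 0.28. PNPT1, a mitochondrial exoribonuclease, followed with 4.58 and 5.99 (distance 0.29).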

How the data were processed

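H3K27ac ChIP-seq of 2 IFN-β and 2 control libraries and 1 input library of HCT116 cells was analyzed. Per the study's methods and the submitters' processing notes, the authors made reads with bcl2fastq 2.17, trimmed them with fastp 0.19.3, aligned them to GRCh38 with Bowtie2, called peaks with MACS2 against the input and counted reads with DiffBind, which runs DESeq2. The deposited table holds, per peak, log2 of the mean normalized reads over all samples and in each group. It also holds the authors' log2 fold change, p-value and FDR, which were not used. The table gives no depth per library. Group means hide the spread between libraries, and the normalization sets the offset shared by all peaks.

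Differences of the group log2 means were computed in Python 3.11.15 with pandas 2.3.3, numpy 2.4.6, scipy 1.17.1 (intervals), pysam 0.24.0 (sequence) and matplotlib 3.10.9. Start sites came from GENCODE release 44, promoters from RefSeq (GRCh38.p14) and other sequence from GRCh38. The interval method was run on simulated Poisson reads built on the same lowest values that it assumes. That run checked the computation, and could not test whether the implied reads are right or how libraries vary. Besides the 8 members, genes above 0 in each list were named, or otherwise its 2 highest and 2 lowest, plus the 3 genes most like the highest member. GCA, KAT2A, ZFAS1, NDUFB6, FAM149A, CDC25B, PPP1CA, DDX60L, TRIM25, RIPK1, DHX15, TLR7 and TLR8 were named after their values were seen. The members and lists were chosen with earlier results of these data known. Alternatives were other scalings, pseudocounts, distances, start sets, gene values and motif windows.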

Additional observations from a re-analysis of the deposited data

How the results depend on the processing

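Across the settings the difference ranged from 0.99 to 1.80 at RIGI, 0.74 to 1.54 at EIF2AK2, 0.23 to 0.97 at IFIH1 and −0.93 to −0.17 at DHX58. RIGI, EIF2AK2 and IFIH1 have 1 peak each, so settings on distance, start set and gene value returned the same number, and centering on a negative median raises every value; their sign was bound to hold. Scaling changed the sign at MAVS and ZNFX1. MAVS went from −0.61 to 0.08 when centered on the median of all peaks, to 0.15 within 10 bins of GC content and to 0.11 within 10 bins of signal, and ZNFX1 went from −0.35 to 0.34, 0.33 and 0.44. The count of member peaks above 0 was 4 as deposited, and 8, 7 and 7 under those scalings, where 49.1%, 49.4% and 47.5% of all peaks are above 0; the upstream ADAR and ZNFX1 peaks exceed the median of all peaks by 0.01. ADAR was at −0.68 when only protein-coding starts were used, since its nearest peak is then the upstream one, and at −0.08 with reads summed over its peaks. The median difference relative to all peaks, 0.21, was 0.92 over peaks within 1 kb of a start and 0.08 over peaks within 25 kb. The share of member peaks with the ISRE core, 3 of 10 as exact letters, was 80.0% with 1 mismatch allowed, which 69.5% of all peaks also hold. The gap between the inducible genes and MAVS ranged from 0.64 to 1.01, and the number of genes with a peak from 6 (within 1 or 5 kb) to 8 (within 25 kb).

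No paired analysis was possible because the table holds group means, with no column for a replicate number. For the same reason the fits that leave out a library in turn were not run. At IFIH1 and the downstream ADAR peak a difference from 0 was not detectable at this depth, although their counting intervals lay above the table median, and the spread between libraries is unknown for every value. All statements rest on 2 libraries per group and 1 time after IFN-β.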

Other observations

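Other sequence elements were counted as descriptions in the 10 member peaks, of which 3 lay between 1 and 10 kb from a member start. The GC box (GGGCGG) stood in 7, against 67.3% of all peaks and 90.8% of peaks within 1 kb of a protein-coding start. The letters TATAAA stood in 5, against 28.6% and 15.7%. The letters TTCNNNGAA (GAS) stood in 1, against 21.8% and 17.8%. The GC content of member peaks ran from 41.4% at the upstream MAVS peak to 67.7% at the nearer MAVS peak and the median of promoter peaks was 64.2%. Over all promoter peaks, the 982 with an ISRE core had a median difference of −0.68, and the 10352 without it had −0.76. These 2 sets were not matched for GC content. Over all peaks the median ran from −0.47 in the lowest GC content bin to −0.82 in the highest, so the gap cannot be assigned to the core.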
